A study of Bos taurus with 4 samples.

Results

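Troponin is the calcium switch of the thin filament of striated muscle. Troponin C binds calcium, troponin I holds back the interaction of actin with myosin, and troponin T ties the complex to tropomyosin. Skeletal muscle fibres use a slow and a fast set of these subunits from separate genes, and slow (type I) and fast (type II) fibres are known to differ in which set they express. The 6 genes described here are the slow subunits TNNT1 (troponin T), TNNC1 (troponin C) and TNNI1 (troponin I) and the fast subunits TNNT3, TNNC2 and TNNI2. They were found by exact match of the gene symbol, and all 6 had a row among the 21861 genes of the count tables. TNNC1 is also the troponin C of the heart, so its name as slow holds for skeletal muscle.

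The data are single-nucleus RNA counts from adipose tissue of 2 feedlot beef steers, titled cow 1 and cow 2, with no treatment and with diet, age and breed not known. Each animal gave 1 subcutaneous (backfat) and 1 intramuscular library, so each depot had 2 libraries and each number names 1 animal. Unique molecular identifiers (UMIs), which count captured RNA molecules, were used throughout.

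Kept nuclei numbered 874 and 6126 in the subcutaneous and 1774 and 63 in the intramuscular libraries, with 105481 to 4006966 UMIs per library and a median of 518 to 1100.5 per nucleus. The intramuscular library of animal 2 stood apart with 63 nuclei and 0.0133% mitochondrially encoded UMIs, against 1.24% to 1.65% in the other 3. Only 4 barcodes were shared over all pairs of libraries. The labelled tissue was checked against its markers. Of 16 adipocyte markers 15 had a row, and all 15 were detected in every library. Their share of UMIs was 0.644% and 0.0510% in animals 1 and 2 under the subcutaneous label, and 1.75% and 1.504% under the intramuscular one. Of 16 muscle fibre markers 14 had a row, and these took 3.95% and 14.8% of UMIs in the subcutaneous libraries against 0.00217% and 0.00379% in the intramuscular ones. All 14 were detected in both subcutaneous libraries, but 10 and 2 in the intramuscular ones. The slow fibre markers MYH7 and MYL2 and the fast fibre markers MYL1 and PYGM were at 0 in both intramuscular libraries. The libraries labelled subcutaneous held muscle RNA and those labelled intramuscular almost none, and every direction between depots holds for the labels as given. The source of the muscle RNA was not tested.

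Troponin RNA was abundant in the libraries labelled subcutaneous and near absent from the others. The 6 genes took 1.54% of all UMIs in the subcutaneous library of animal 1 and 7.69% in that of animal 2, against 0.00155% and 0.00758% in the intramuscular libraries. In a whole library, more fibre nuclei and more RNA per fibre nucleus cannot be told apart. Fibre-like nuclei, named from muscle markers in clusters made without the 6 genes, were 126 (14.4%) and 4303 (70.2%) of the subcutaneous nuclei and none of the intramuscular ones, where 0 of 1774 and 0 of 63 allow shares of up to 0.208% and 5.69% (exact Clopper-Pearson 95% upper bounds).

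TNNT1, which anchors the slow complex, had 1859 and 9375 UMIs in the subcutaneous libraries of animals 1 and 2, or 1633 and 2340 CPM. CPM is the number of UMIs after every library, or group of nuclei, is scaled to the same total, and compares 1 gene between them. TNNC1, the slow calcium sensor, had 2203 and 10468 UMIs, or 1935 and 2612 CPM. TNNI1, the slow inhibitory subunit, had 692 and 1259 UMIs, or 608 and 314 CPM. It was the member with the lower level in animal 2, although that library had the larger share of fibre-like nuclei. None of the 3 slow genes had a UMI in either intramuscular library, where the limit of 3 UMIs stands at 1.10 and 28.4 CPM.

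TNNT3, the fast troponin T, had 3176 and 63822 UMIs in the subcutaneous libraries (2789 and 15928 CPM), and 33 and 6 in the intramuscular ones (12.1 and 56.9 CPM). TNNC2, the fast calcium sensor, had 6490 and 142994 UMIs (5700 and 35686 CPM), against 4 and 1 (1.47 and 9.48 CPM). TNNI2, the fast inhibitory subunit, had 3138 and 80379 UMIs (2756 and 20060 CPM), against 5 and 1 (1.84 and 9.48 CPM). Every subcutaneous value of every member was above both intramuscular values. The fast genes were higher in animal 2 than in animal 1 by several times, while TNNT1 and TNNC1 were close in the 2 animals.

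**Figure D1:**
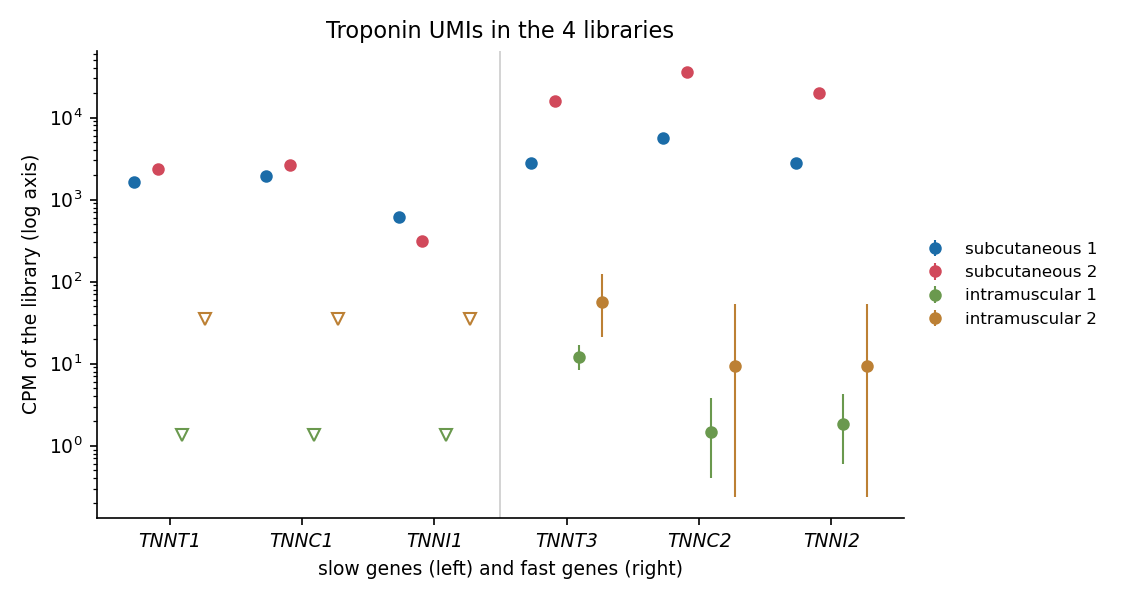
CPM (log axis) for the 3 slow and 3 fast genes, with exact Poisson 95% intervals, which cover counting error only; open triangles are the upper bounds of a count of 0. The subcutaneous points lie at 314 to 35686 CPM, above both intramuscular points for each gene, and the 3 slow genes have 0 UMIs in both intramuscular libraries.

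Set against the limit of 3 UMIs per library, the lower subcutaneous level was at least 57.4-fold higher than the intramuscular libraries for TNNT1, at least 68.0-fold for TNNC1 and at least 11.0-fold for TNNI1. The ratio of the animals' own libraries was 230 (exact 95% counting interval 163 to 334) and 280 (129 to 763) for TNNT3. For TNNC2 it was 3872 (1512 to 14217) in animal 1 and 3764 (676 to 148680) in animal 2. For TNNI2 it was 1498 (641 to 4616) and 2116 (380 to 83576). TNNT3 thus had the smallest ratio of the 3 fast genes in both animals, and in animal 1 its interval did not overlap those of TNNC2 and TNNI2.

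In edgeR's quasi-likelihood test on library sums (subcutaneous over intramuscular, 2 libraries each, Benjamini-Hochberg over 11143 genes), 3 of the 6 genes passed an adjusted p of 0.05, beside 1.47% of all genes tested called higher in subcutaneous. They passed the filter on low counts through the subcutaneous libraries alone, so this count supports nothing by itself. TNNI1 had an adjusted p of 0.0337, TNNT1 of 0.0461 and TNNC1 of 0.0487. Their fitted fold changes depend on the prior count, since the intramuscular libraries were at 0. TNNI2 had a log2 fold change of 12.95 (standard error, SE, 4.82, adjusted p = 0.338 by edgeR), TNNT3 of 9.56 (SE 3.91, adjusted p = 0.390) and TNNC2 of 13.96 (SE 5.85, adjusted p = 0.406). All 6 had an unadjusted p under 0.05. Without the intramuscular library of animal 1 the number called was 0 (3 of the 6 had an unadjusted p under 0.05), and none of the 10842 genes tested was called higher. Without that of animal 2 it was 1 (TNNI1), beside 308 of 12302 genes called higher. With animal 1 alone for the subcutaneous side it was 5, beside 159 of 11224. DESeq2's test called 6, beside 327 of 11143, where edgeR had called 164.

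Other muscle genes were called higher in part, beside 1.47% of all genes tested. Muscle RNA was near absent from the intramuscular libraries, so such genes could pass the filter on low counts through the subcutaneous libraries alone. The counts called, and the lack of lower calls, therefore support nothing by themselves. Of 20 slow fibre genes, all tested, 8 were called higher and none lower, among them the light chain MYL6B (log2 fold change 10.76, SE 1.87) and the fatty acid carrier FABP3 (6.21, SE 1.15). Of 18 tested fast fibre genes 1 was called higher, AMPD1, the muscle AMP deaminase (8.82, SE 1.73). Of 17 tested thin filament genes other than the 6, 4 were called higher. These were LMOD2 (11.00) and LMOD3 (9.56), leiomodins that nucleate actin, and KLHL40 (10.68) and KLHL41 (10.40), kelch proteins of the sarcomere. The median log2 fold change was 7.05 in the slow, 11.80 in the fast and 4.29 in the thin filament list, beside 0.16 over all genes tested.

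The share of troponin UMIs that came from the 3 slow genes differed between the 2 subcutaneous libraries. It was 27.1% (exact 95% interval 26.4 to 27.7) in animal 1 and 6.84% (6.76 to 6.93) in animal 2. Capture per molecule can differ between genes, so such a share is read between libraries and nuclei and not as the amount of slow against fast protein. The slow gene's share was lower in animal 2 for each subunit. For troponin T it was 36.9% (35.6 to 38.3) against 12.8% (12.6 to 13.1). For troponin C it was 25.3% (24.4 to 26.3) against 6.82% (6.70 to 6.95). For troponin I it was 18.1% (16.9 to 19.3) against 1.54% (1.46 to 1.63), the widest gap of the 3 pairs as a ratio. With 1 subcutaneous library per animal these differences have no replicate check. The slow myosin heavy chain MYH7 showed the same order, with 35.5% and 14.6% of the UMIs of MYH7, MYH1, MYH2 and MYH4. The fast myosin UMIs were 96.2% MYH2 (type IIa) in animal 1 and 69.6% MYH1 (type IIx) in animal 2. When only nuclei of at least 500 genes were used, the slow troponin share of animal 2 was 9.96%, still below that of animal 1.

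Among the slow genes, TNNI1 had 14.6% (13.6 to 15.6) of the UMIs in animal 1 and 5.97% (5.65 to 6.29) in animal 2. Of the fast genes, TNNC2 had 50.7% (49.8 to 51.6) and 49.8% (49.6 to 49.97), TNNT3 had 24.8% (24.1 to 25.6) and 22.2% (22.1 to 22.4), and TNNI2 had 24.5% (23.8 to 25.3) and 27.99% (27.8 to 28.2). The intervals of the animals overlapped for TNNC2 and not for TNNI1, TNNT3 and TNNI2, and TNNI1 had the largest ratio between the animals of these 4.

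Fibre-like nuclei held the highest level of each member in both libraries. In animal 1 the 126 fibre-like nuclei had 7706 TNNT1, 8802 TNNC1 and 3497 TNNI1 CPM, and 13160 TNNT3, 27952 TNNC2 and 13226 TNNI2. In animal 2 the 4303 fibre-like nuclei had 2767, 3189 and 395 CPM of the slow genes and 19346, 43502 and 24191 of the fast ones, in the same order. The median troponin content of a fibre-like nucleus was 57 UMIs in animal 1 and 46 in animal 2.

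Troponin UMIs were also found in the 4 other named types, none of them muscle. They were adipocyte-like, progenitor-like, blood endothelial-like and pericyte/smooth muscle-like, 450 nuclei in animal 1 and 782 in animal 2, with medians of 3 and 21 troponin UMIs per nucleus and of 954.5 and 569.5 UMIs in all (839.5 and 511 in fibre-like nuclei). These types should lack both sets, so their level serves as the background here, and the parts of free RNA and of doublets in it were not tested. For TNNC2 it was 1623 (1528 to 1724, exact Poisson) and 17350 (17020 to 17684) CPM. As a percentage of the fibre-like level in CPM, the background of the 6 genes ran from 4.33% (TNNI1) to 9.20% (TNNC1) in animal 1 and from 36.2% (TNNI1) to 44.9% (TNNC1) in animal 2. Fibre-like nuclei of animal 2 thus stood much less far above their surroundings than those of animal 1.

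Among the types that are not muscle, levels in CPM were lower where nuclei were deeper, apart from blood endothelial-like nuclei of animal 1. TNNC2 in animal 1 stood at 1026 CPM in adipocyte-like (median 1638 UMIs per nucleus), 1791 in progenitor-like (766), 2214 in blood endothelial-like (1223.5) and 3187 (634) in nuclei of the pericyte/smooth muscle-like type. In animal 2 it was 8740 in the 18 adipocyte-like (1388.5), 16038 in blood endothelial-like (666), 18988 in pericyte/smooth muscle-like (500) and 20559 in progenitor-like nuclei (485). Counted per nucleus, TNNC2 had 12.3 to 14.4 UMIs in each of the 4 types of animal 2. In animal 1 it had 1.86 to 2.37 in 3 types and 4.74 in blood endothelial-like nuclei. That last value rests on 8 nuclei in a cluster with heat shock genes in the lead, without which the other 60 endothelial-like nuclei had 1152 CPM.

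The slow share in the types that are not muscle differed more between the animals than between the types. In animal 1 it was 32.2% (30.5 to 33.8) over the types that are not muscle and ran from 30.03% in progenitor-like to 34.4% in blood endothelial-like nuclei, against 26.9% (26.1 to 27.7) in fibre-like ones, an interval that did not overlap it. In animal 2 it was 7.26% (6.93 to 7.60) and ran from 6.58% in progenitor-like to 8.24% in adipocyte-like nuclei, against 6.80% (6.70 to 6.90) in fibre-like ones. The 4 named types lay within 5 points of each other in animal 1 and within 2 points in animal 2, and the gap between the animals was larger than either. The unnamed cluster led by IGFBP3, which is not among these types, lay below them in both animals. It had 24.1% (21.3 to 27.01) in 173 nuclei of animal 1, an interval that overlapped that of fibre-like nuclei, and 6.16% in 26 nuclei of animal 2. A slow share above that of fibre-like nuclei in animal 1 thus holds for the named types only. When the 6 genes were left in for the clustering, the types that are not muscle had a slow share of 16.9% in animal 1, so that value depends on how nuclei are assigned.

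Within fibre-like nuclei the slow genes were concentrated in 1 of 4 clusters. This cluster had MYH7, MYL6B and MYL2 in the lead and held 56 nuclei of animal 1 and 439 of animal 2. It had a slow troponin share of 72.7% (71.3 to 74.1) in animal 1 and 33.5% (32.9 to 34.1) in animal 2. TNNT1 reached 15343 and 10592 CPM there, TNNC1 17525 and 11210, and TNNI1 7051 and 1524. The cluster led by the glycolytic genes ALDOA and PYGM with MYH2 and MYH1 (42 and 1717 nuclei) had a slow share of 2.53% (2.01 to 3.14) and 4.73% (4.58 to 4.89). The cluster with HSPB8, TPI1 and MYLPF among its leading genes (25 and 1588 nuclei) had 1.39% (1.06 to 1.80) and 3.22% (3.13 to 3.32). The cluster led by XIRP2 and CRKL had 4.49% (4.24 to 4.75) in 559 nuclei of animal 2 and only 3 nuclei in animal 1. The order of the 3 clusters present in both animals was the same. Clusters were made from genes that move with the fibre type, so these values are a description.

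**Figure D2:**
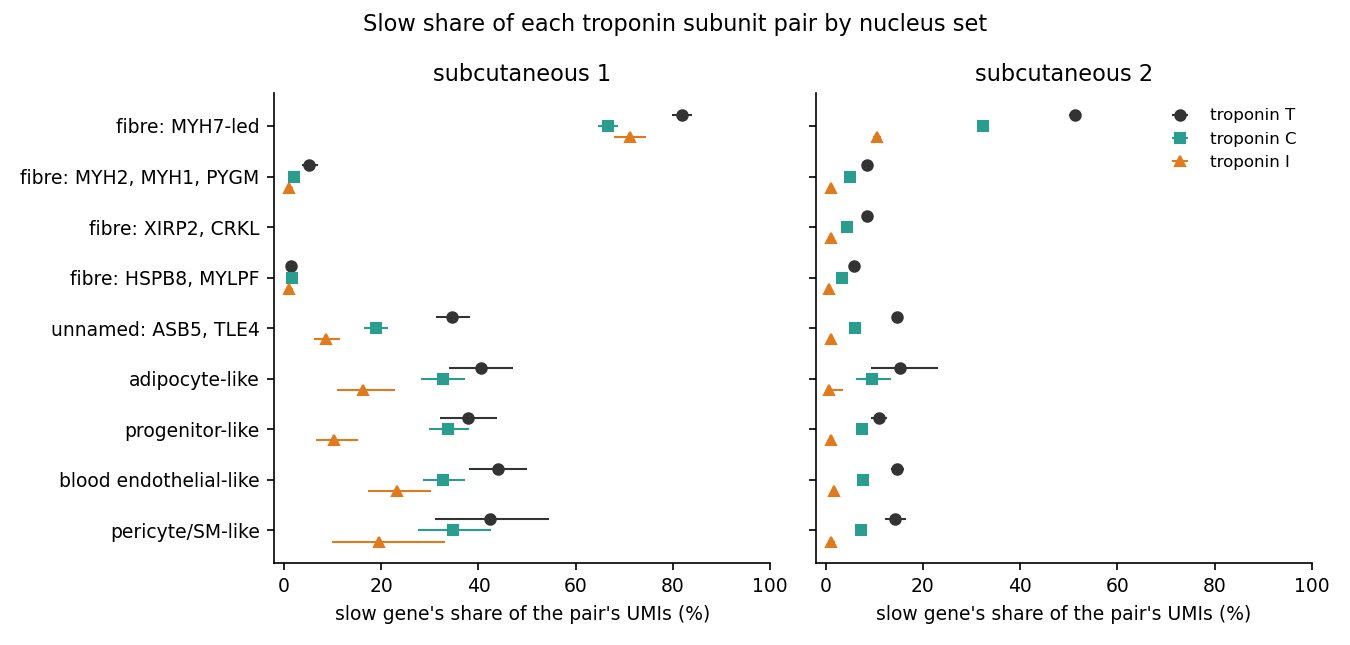
Slow gene's share of the UMIs of each subunit pair (TNNT1 of TNNT1 and TNNT3, TNNC1 of TNNC1 and TNNC2, TNNI1 of TNNI1 and TNNI2) by cluster or nucleus type in the subcutaneous libraries, with exact 95% intervals for counting error. The MYH7-led fibre cluster lies far right in both libraries, and troponin I lies left of troponin T in each set of animal 2, with 10.5% against 51.3% in that cluster.

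The 3 subunit pairs did not shift in step. In the MYH7-led cluster of animal 1 the slow share was 81.9% (79.8 to 83.9) for troponin T, 66.6% (64.5 to 68.8) for troponin C and 71.2% (67.8 to 74.5) for troponin I. In that cluster of animal 2 it was 51.3% (50.2 to 52.4), 32.5% (31.7 to 33.3) and 10.5% (9.71 to 11.4). Troponin I was therefore near the other pairs in animal 1 and far below them in animal 2. The fast genes of that cluster in animal 2 were not far above the types that are not muscle. TNNT3 had 10057 against 7421 CPM, TNNC2 23291 against 17350 and TNNI2 12951 against 10276. How far the background sets the pair shares there was not tested. Of the slow UMIs in this cluster TNNI1 had 17.7% (16.3 to 19.1) in animal 1 and 6.53% (6.02 to 7.08) in animal 2. Fast genes in the same cluster also differed in make-up in animal 1. TNNC2 had 58.5% (55.5 to 61.4) of the fast UMIs there, against 52.4% (50.6 to 54.1) and 48.3% (46.7 to 49.9) in the 2 fast clusters named above. The types that are not muscle had 51.3% (49.1 to 53.5). In animal 2 TNNC2 had 50.3% (49.5 to 51.1), 50.3% and 49.5%, beside 49.5% (48.8 to 50.2) in the types that are not muscle. The first and last of these intervals overlapped, so no make-up of its own can be read for the MYH7-led cluster of animal 2.

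Fibre-like nuclei of animal 1 divided into mostly slow and mostly fast ones, while those of animal 2 were nearly all mostly fast. Nuclei of the types that are not muscle in animal 2 were nearly all mostly fast as well. A nucleus with at least 5 troponin UMIs was called mostly slow at 80% or more slow UMIs, mostly fast at 20% or less, and mixed in between. Of 122 such fibre-like nuclei in animal 1, 66 (54.1%, exact interval 44.8 to 63.2) were mostly fast, 39 (32.0%, 23.8 to 41.0) mostly slow and 17 (13.9%, 8.33 to 21.4) mixed. In bins of 5 points, the lowest held 57 of these nuclei, the 2 highest 14 each, and those from 35% to 50% none. Of 4303 in animal 2, 3919 (91.1%, 90.2 to 91.9) were mostly fast, 379 (8.81%, 7.98 to 9.69) mixed and 5 (0.116%, 0.0377 to 0.271) mostly slow. The highest slow share of any fibre-like nucleus in animal 2 was 84.1%, against 100% in animal 1. In the types that are not muscle of animal 2, 723 of 782 nuclei (92.5%, 90.4 to 94.2) were mostly fast and 59 (7.54%, 5.79 to 9.62) mixed. These intervals overlapped those of fibre-like nuclei, so this split of animal 2 is not particular to them. In animal 1, 62 of 157 such nuclei (39.5%) were mostly fast, 86 (54.8%) mixed and 9 (5.73%) mostly slow.

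In the MYH7-led cluster the median slow share per nucleus was 90% (quartiles 78.5 and 94.97) in animal 1 and 26.1% (10.7 and 43.6) in animal 2. Mixed nuclei made up 27.3% (16.1 to 41.0) of that cluster in animal 1 and 57.4% (52.6 to 62.1) in animal 2. Mixed nuclei of animal 1 had a median of 985 UMIs, against 902.5 in mostly fast and 829 in mostly slow ones. In animal 2 they had 585, against 507 in mostly fast ones and 1551 in the 5 mostly slow ones. Within the MYH7-led cluster the 15 mixed nuclei of animal 1 had a median of 1606 UMIs, against 829 in the 39 mostly slow ones. The 252 mixed nuclei of that cluster in animal 2 had 681.5, against 498 in the 182 mostly fast ones. No doublets were removed, and the part of doublets and of free RNA in the mixed class was not tested.

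**Figure D3:**
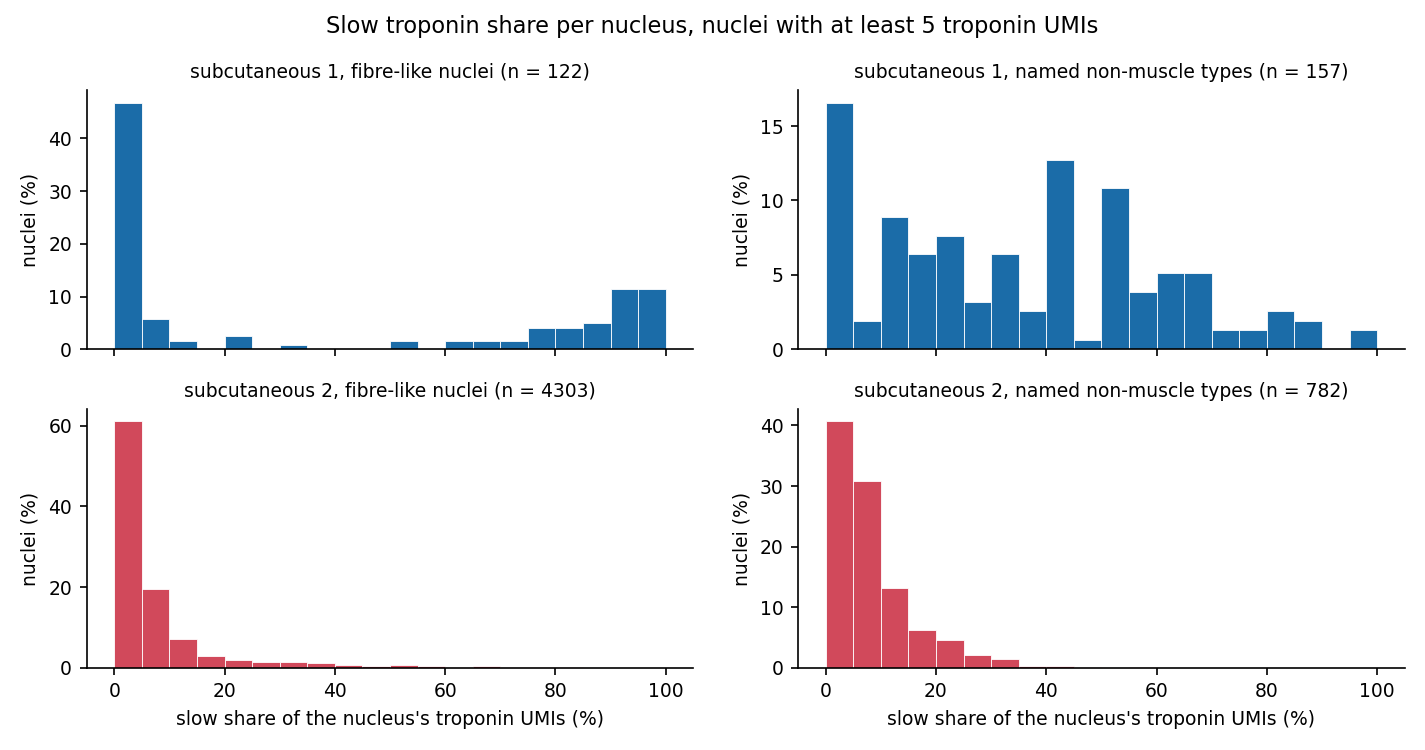
Percentage of nuclei in 5-point bins of slow troponin share, for fibre-like nuclei (left) and the 4 other named types (right) of the subcutaneous libraries, nuclei with at least 5 troponin UMIs. Fibre-like nuclei of animal 1 pile up at both ends (57 of 122 in the lowest bin, 14 in each of the 2 highest), while those of animal 2 pile up at the fast end alone. The other named types of animal 2 lie toward the fast end as well.

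Since a share of few UMIs is coarse, every nucleus was also reduced to 5 troponin UMIs by expectation. All 5 would be fast in 48.5% and all slow in 23.5% of fibre-like nuclei of animal 1, with both kinds in 28.0%. In animal 2 these were 74.7%, 0.251% and 25.01%. In the types that are not muscle, both kinds would be drawn in 73.5% of nuclei of animal 1 and 31.6% of animal 2. At equal numbers of UMIs, both kinds were thus drawn from a smaller share of fibre-like nuclei than of the others, by a wide margin in animal 1 and a narrow one in animal 2. Only 157 of the 450 nuclei of those types in animal 1 reached 5 UMIs, while all 782 in animal 2 did. No test was made, since nuclei of a library are not replicates.

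The myosin heavy chain offered a class of fibre that does not use the troponins. Fibre-like nuclei with at least 2 UMIs of MYH7, MYH1, MYH2 and MYH4 were called slow-myosin where MYH7 had at least 80% of them and fast-myosin where it had at most 20%. Animal 1 had 52 slow-myosin, 65 fast-myosin and 6 intermediate nuclei, and animal 2 had 75, 3466 and 762. All 52 of animal 1 and 69 of the 75 of animal 2 lay in the MYH7-led cluster. The fast-myosin nuclei were mostly in the other fibre clusters.

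The slow genes were higher and the fast genes lower in slow-myosin nuclei, for each of the 6 genes in both libraries. TNNT1 stood at 16375 CPM in slow-myosin and 658 in fast-myosin nuclei of animal 1, and at 13959 and 1256 in animal 2. TNNC1 stood at 17981 and 774 in animal 1 and at 11191 and 1692 in animal 2. TNNI1 stood at 7492 and 219 in animal 1 and at 2063 and 170 in animal 2. The slow genes were thus 23.2-fold to 34.2-fold higher in slow-myosin nuclei of animal 1 and 6.62-fold to 12.2-fold higher in animal 2, with TNNI1 the most different and TNNC1 the least in each. The fast-myosin levels behind these folds were near those of the types that are not muscle, as given below.

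TNNT3 stood at 1407 CPM in slow-myosin and 22564 in fast-myosin nuclei of animal 1, and at 4857 and 21305 in animal 2. TNNC2 stood at 5260 and 46416 in animal 1 and at 11364 and 47646 in animal 2. TNNI2 stood at 917 and 23040 in animal 1 and at 6627 and 26516 in animal 2. Fast-myosin nuclei were 16.04-fold (TNNT3), 8.83-fold (TNNC2) and 25.1-fold (TNNI2) above slow-myosin ones in animal 1. In animal 2 they were 4.39-fold, 4.19-fold and 4.001-fold above. In fast-myosin nuclei the 3 fast genes were close in the animals, but counting intervals overlapped for TNNC2 alone. TNNI2 was higher and TNNT3 slightly lower in animal 2. In slow-myosin nuclei the 3 fast genes were higher in animal 2, where they lay below the level in the types that are not muscle, as given below.

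**Figure D4:**
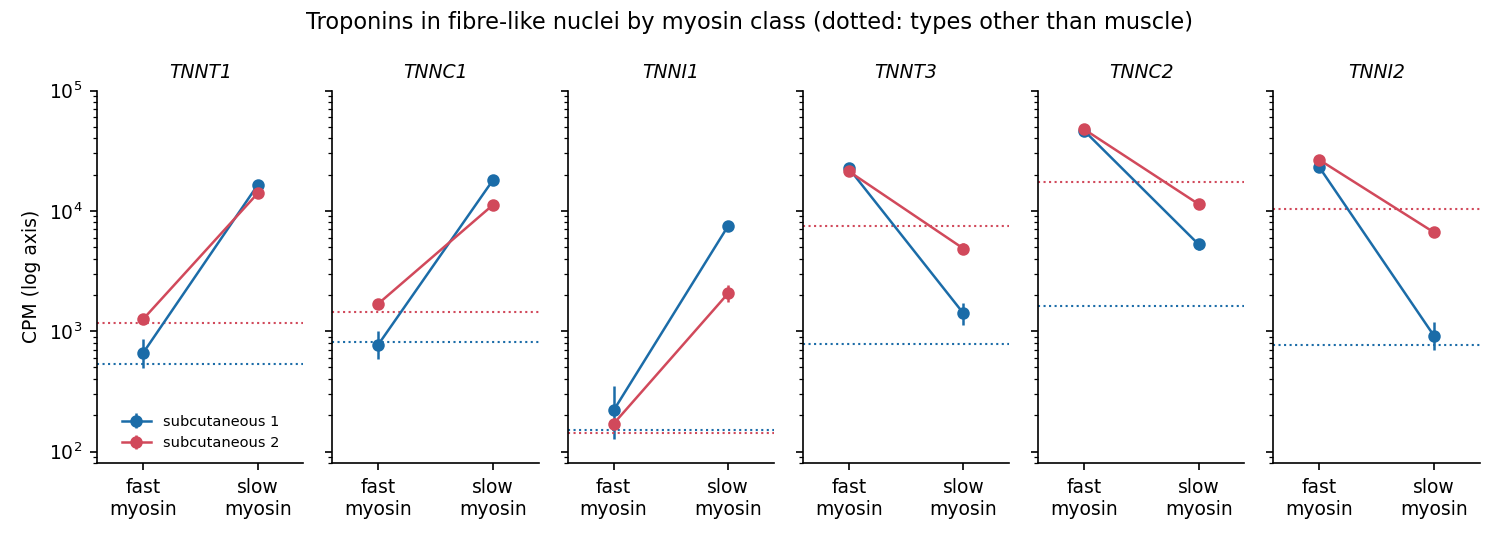
CPM (log axis) of the 6 genes in fast-myosin and slow-myosin fibre-like nuclei of each subcutaneous library, with exact Poisson 95% intervals for counting error; dotted lines are the level in the types that are not muscle. Slow genes are higher and fast genes lower in slow-myosin nuclei of both libraries, and in animal 2 the fast genes of slow-myosin nuclei lie below the dotted line.

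The level in the types that are not muscle sets how far these values can be read. In animal 2 slow-myosin nuclei had 4857 TNNT3, 11364 TNNC2 and 6627 TNNI2 CPM, below the 7421, 17350 and 10276 of the types that are not muscle. The fast troponins of slow-myosin nuclei in that library were below that level by more than counting error, and are not read as expression. For the slow genes of its fast-myosin nuclei the order depended on the scale. They had 3117 (3043 to 3193) CPM, beside 2743 (2613 to 2878) in the types that are not muscle, but 1.93 UMIs per nucleus beside 2.14. In fast-myosin nuclei of animal 1 the slow genes had 1650 (1377 to 1962) CPM beside 1499 (1407 to 1596), and 1.97 UMIs per nucleus beside 2.20. The folds of the slow genes between the classes are thus folds over a level near the background in both animals. In animal 1 TNNI2 had 1.15 UMIs per slow-myosin nucleus, beside 1.12 in the types that are not muscle, and 917 (700 to 1181) against 763 (697 to 832) CPM. TNNT3 had 1.77 against 1.14 UMIs per nucleus, and 1407 (1134 to 1725) against 778 (712 to 848) CPM. TNNC2 stood further out, with 6.62 against 2.38 UMIs per nucleus, and 5260 (4718 to 5846) against 1623 (1528 to 1724) CPM. In slow-myosin nuclei of animal 1 the fast troponin C and T genes were therefore above the background of their library by more than counting error, TNNC2 by the wider margin, and TNNI2 was not.

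In edgeR's quasi-likelihood test on the sums per library and class (slow-myosin over fast-myosin, library as a block, 996 genes tested), 2 of the 3 slow genes were called higher, beside 1.51% of all genes tested called higher. TNNI1 had a log2 fold change of 4.06 (SE 0.42, adjusted p = 0.0370) and TNNT1 of 3.90 (SE 0.41, adjusted p = 0.0370). TNNC1 had 3.46 (SE 0.55, adjusted p = 0.0576). None of the 3 fast genes was called lower, beside 0.703% of all genes tested called lower. TNNC2 had a log2 fold change of -2.72 (SE 0.40, adjusted p = 0.0521), TNNT3 of -3.16 (SE 0.56, adjusted p = 0.0787) and TNNI2 of -3.38 (SE 0.76, adjusted p = 0.125). All 6 had an unadjusted p under 0.05 and the same direction in 2 of 2 libraries. All 6 were called under 5 alternatives, which also called more of all genes than the 15 higher and 7 lower above. These were DESeq2's test (21 higher and 21 lower), its size factors (39 and 34), class limits of 90% and 10% (40 and 31 of 909), all nuclei (40 and 30 of 3930) and nuclei of at least 500 genes (41 and 38 of 640).

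Of 15 tested genes of the slow fibre list 5 were called higher and 1 lower, with a median log2 fold change of 1.90 beside -0.004 over all genes tested. The 4 named are the calcium pump ATP2A2 (3.21, SE 0.20), its inhibitor PLN (3.40, SE 0.29), the Z-disc protein MYOZ2 (3.15, SE 0.29) and the muscle LIM protein CSRP3 (1.90, SE 0.22). The fifth was the slow tropomyosin TPM3 (4.04, SE 0.51), which is also on the thin filament list. SLN, sarcolipin, which inhibits the calcium pump, was called lower (-2.66, SE 0.31). Of 16 tested genes of the fast fibre list none was called higher and 3 were called lower, with a median of -1.77. They are lactate dehydrogenase LDHA (-2.10, SE 0.18), alpha-actinin ACTN3 (-2.18, SE 0.22) and the muscle enolase ENO3 (-1.77, SE 0.23). Of 11 tested thin filament genes other than the 6, TPM3 alone was called higher and none lower, with a median of -0.01. The lists were drawn up with earlier results of these data known.

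**Figure D5:**
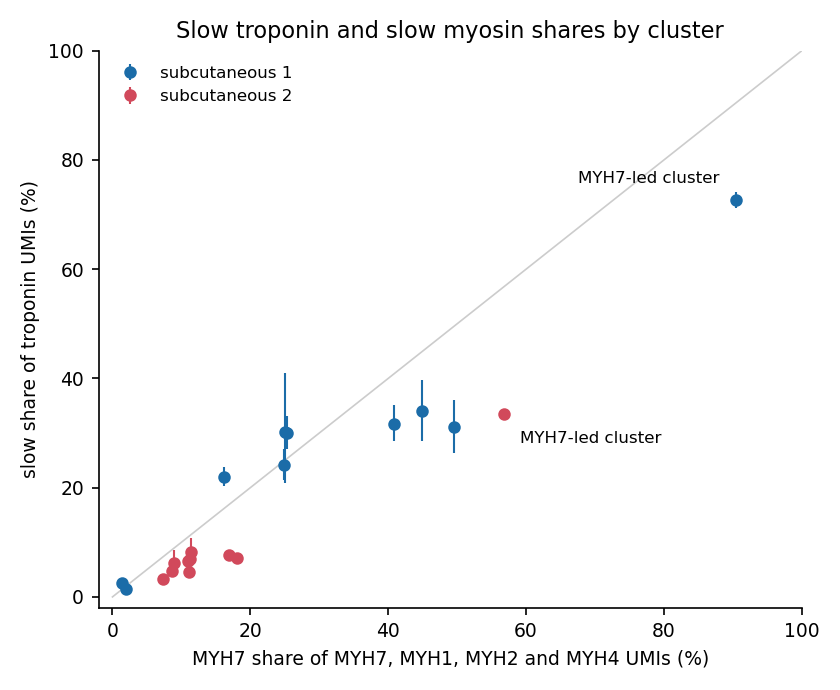
Slow troponin share (%, exact 95% interval) against the MYH7 share of myosin heavy chain UMIs (%) for each cluster with at least 10 nuclei of a subcutaneous library; the grey line marks equal shares. The MYH7-led cluster lies at 90.4% MYH7 and 72.7% slow troponin in animal 1, and at 56.8% and 33.5% in animal 2.

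Troponin and myosin shares went together across fibre-like nuclei taken as a whole. Across the 121 fibre-like nuclei of animal 1 with both kinds of UMI, Pearson's r between the slow troponin share and the MYH7 share was 0.98 (Spearman's rho 0.83). Across 4303 of animal 2 it was 0.76 (rho 0.46). Within single clusters r was lower. In the MYH7-led cluster it was 0.86 (rho 0.41) in animal 1 and 0.66 (rho 0.69) in animal 2. In the other fibre clusters with at least 10 nuclei it was 0.22 and 0.51 (rho 0.10 and 0.39) in animal 1. In those of animal 2 it was 0.53 to 0.62 (rho 0.28 to 0.37). These nuclei share a library, and the correlations are a description. In the types that are not muscle r was 0.64 (103 nuclei) in animal 1 and 0.29 (760 nuclei) in animal 2. Troponin shares of intermediate-myosin nuclei fell between those of the classes: 22.1% (19.4 to 24.9) in animal 1, beside 84.7% (83.4 to 85.9) in slow-myosin and 1.76% (1.47 to 2.09) in fast-myosin nuclei. In animal 2 they were 22.4% (22.02 to 22.9), beside 54.4% (52.8 to 56.0) and 3.16% (3.09 to 3.24).

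The genes most like each member were sought over 18 sums per library and cluster (at least 20 nuclei each), among 4572 genes, by Pearson's r of log2(CPM + 1). The 3 slow genes had the same 3 nearest genes: the myosin light chains MYL2 (r of 0.96 with TNNT1, 0.99 with TNNC1, 0.94 with TNNI1) and MYL6B (0.92, 0.97, 0.91) and the heavy chain MYH7 (0.96, 0.97, 0.88). The 3 fast genes had the fast light chain MYLPF first (1.00 with TNNT3 and TNNC2, 0.99 with TNNI2) and adenylate kinase AK1 second (0.98, 0.98, 0.99). The third was the calcium pump ATP2A1 (0.98) for TNNT3, the Z-disc protein MYOZ1 (0.98) for TNNC2 and SLN (0.98) for TNNI2. The slow genes correlated with each other at 0.90 to 0.96, the fast ones at 0.99 to 1.00, and slow with fast genes at 0.24 to 0.44.

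Fibre-like nuclei with mostly slow troponins were also set beside those with mostly fast ones, in 39 against 66 nuclei of animal 1 and 5 against 3919 of animal 2. Each of 1973 genes was ranked by the less extreme of its ratios in the 2 libraries. The 5 highest were PLN, TPM3, MYL2, MYOZ2 and ATP2A2. MYL2 had 48375 against 1482 CPM in animal 1 and 33578 against 3005 in animal 2. The 5 lowest by the same rule were NRDC, SLN, RAPSN, MYBPC2 and PHKB. MYBPC2, the fast myosin-binding protein C, had 93.0 against 4941 CPM in animal 1 and 648 against 6599 in animal 2. NRDC, RAPSN and PHKB had no UMI in the mostly slow nuclei of either library and 10 to 14 in the mostly fast ones of animal 1. The ratio was taken after adding 10 CPM to both levels, and the rank of these 3 genes rests on that. Only 5 nuclei stand behind the mostly slow values of animal 2.

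The cardiac members of the family had few UMIs in every library. TNNT2, the cardiac troponin T, had 22 and 6 UMIs in the subcutaneous and 45 and 5 in the intramuscular libraries (log2 fold change -1.09, SE 0.98, adjusted p = 0.749 by edgeR). TNNI3, the cardiac troponin I, had 3 and 14 against 8 and 1. Fibre-like nuclei held 1 TNNT2 UMI in animal 1 and 2 in animal 2. Of TNNI3 they held 1 UMI in animal 1 and 12 of the 14 in animal 2, at 4.42 CPM (2.28 to 7.72). By the gene table of another assembly, TNNT1 and TNNI3 lie next to each other, and none of the 8 troponin genes overlaps another gene.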

How the data were processed

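Nuclei were released by Dounce homogenisation and sequenced as 10x Genomics Chromium 3' libraries, per the labels' protocols. The authors' deposited tables hold whole-number UMI counts per gene and nucleus, made with Cell Ranger 6.0.1 per the file headers, on ARS-UCD1.2 per the submitters' processing notes. The sources used here do not give the annotation release or whether intronic reads were counted. No column of another sample was in the files.

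Nuclei with at least 200 genes and at most 10% mitochondrially encoded UMIs were kept, and no doublet caller was applied. Clustering left out the 6 genes and used scanpy 1.11.5 with igraph 0.11.9 (2000 variable genes, 30 principal components, 15 neighbours, Leiden resolution 1.0). A cluster got a name where its 100 leading genes held 3 or more markers of that type. It stayed unnamed where the first 10 of these held more markers of another type. Shallow clusters with no marker of the type among those 10 stayed unnamed too. The cluster led by IGFBP3 held PECAM1, TEK and PTPRB but stayed unnamed, with F13A1 and MRC1 among its first 10. UMIs were summed per library or class and compared with edgeR 4.0.16 in R 4.3.3 (filterByExpr, TMM, quasi-likelihood, Benjamini-Hochberg at 0.05). DESeq2 1.42.0 served as an alternative. Shares have exact Clopper-Pearson and levels exact Poisson 95% intervals, which cover counting error only. For genes at 0 the limit used was 3 UMIs per library. Depth ran from 105481 to 4006966 UMIs per library.

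Same-numbered libraries come from the same animal, per the labels. Their deviations between animals correlated at r = -0.21 over 4368 genes. The members and lists were chosen with earlier results of these data known. Named genes were the 6, the cardiac members, up to 4 called genes per list and direction with the smallest p, the 3 genes most like each member, and the 5 highest and 5 lowest between mostly slow and mostly fast nuclei. Alternatives changed the block, scaling, test, filters, class limits, clustering and libraries used.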

Additional observations from a re-analysis of the deposited data

Results flagged for a closer look

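Barcodes left out by the filters on nuclei also held troponin RNA. In the subcutaneous library of animal 1 the 7 left-out barcodes had 19058 CPM of troponin, of which 62.1% (exact 95% interval 51.0 to 72.3) were slow. In that of animal 2 the 1029 left-out barcodes had 96577 CPM, of which 5.29% (5.05 to 5.53) were slow, with a median of 331 UMIs per barcode. All kept nuclei had 15421 and 76940 CPM of troponin in these libraries, and fibre-like nuclei 74343 and 93389. The 3 and 17 left-out barcodes of the intramuscular libraries had no troponin UMI. They held only 1908 and 2368 UMIs in all, too few to show any at the 15.5 and 75.8 CPM of their kept nuclei. The subcutaneous values are flagged as signal in barcodes outside the main comparisons, which entered the all-barcodes alternatives alone.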

How the results depend on the processing

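Of 132 fold changes of single genes recomputed under alternatives, 0 reversed. Those between depots could hardly reverse, since every subcutaneous level of every member lay above both intramuscular ones, so they say little here. The number of the 6 genes called between depots was 3. It stayed 3 with the animal as a replicate block, was 6 with DESeq2's test and 0 to 5 without 1 library. Crossing the animal numbers in the block, an alternative chosen after seeing the data because same-numbered libraries deviated in opposite directions, gave 6, beside 523 of all genes called higher and 66 lower (164 and 6 without a block). Between myosin classes the number called was 2, and 3 with no replicate block. It was 6 with DESeq2's size factors, with DESeq2's test, with limits of 90% and 10%, with all nuclei and with nuclei of at least 500 genes, and 5 with at least 1 myosin UMI. Leaving out an animal there left no residual degrees of freedom, so only fold changes were given. The cause of these shifts was not tested.

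The slow share of animal 1 was 28.6% in nuclei with at least 500 genes, 16.6% without TNNC1, 43.0% without TNNC2, and 36.9%, 25.3% and 18.1% for the troponin T, C and I pairs alone. That of animal 2 was 6.69% over all barcodes, 9.96% with at least 500 genes, 3.57% without TNNC1, 12.8% without TNNC2, and 12.8% and 1.54% for the T and I pairs. In fibre-like nuclei of animal 1 it was 33.4% with the 6 genes kept in the clustering and 29.5% with at least 500 genes, and in those of animal 2 11.6% with at least 500 genes. In the types that are not muscle it was 16.9% in animal 1 with the 6 genes kept in the clustering, and in animal 2 7.70% at a Leiden resolution of 0.5 and 7.69% with at least 500 genes. Mixed nuclei were 24.6% in animal 1 and 18.5% in animal 2 with limits of 10% and 90%. Each of these shares stayed higher in animal 1. Depth limits the intramuscular library of animal 2, with 105481 UMIs, most.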

Other observations

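The few troponin UMIs of the intramuscular libraries had a make-up of their own. TNNT3 had 33 of the 42 fast troponin UMIs in animal 1 (78.6%, exact 95% interval 63.2 to 89.7) and 6 of 8 in animal 2 (75%, 34.9 to 96.8), against 24.8% and 22.2% in the subcutaneous libraries. In animal 1 progenitor-like nuclei had 18 of them (35.3 CPM, exact Poisson interval 20.9 to 55.8), adipocyte-like nuclei 11 (6.33, 3.16 to 11.3) and blood endothelial-like nuclei 4 (8.78, 2.39 to 22.5). The level in progenitor-like nuclei was above that in adipocyte-like ones by more than counting error.

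TNNT2, the cardiac troponin T gene, was seen in adipocyte-like and progenitor-like nuclei. Adipocyte-like nuclei had 14 of its 22 UMIs in the subcutaneous library of animal 1 (48.7 CPM, 26.6 to 81.7) and 33 of 45 in the intramuscular one (19.0, 13.1 to 26.7). Progenitor-like nuclei had 4 and 12 (20.6 and 23.5 CPM). Fibre-like nuclei of the subcutaneous library of animal 1 had 1 UMI (6.52 CPM, 0.165 to 36.4), with an interval that overlapped that of adipocyte-like nuclei, and the intramuscular libraries had no fibre-like nuclei to compare. Blood endothelial-like nuclei had none in these libraries, which allows up to 25.4 and 8.10 CPM.

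An unnamed cluster of 125 and 1015 subcutaneous nuclei, with ASB5, PLPP7 and UBE2C among its leading genes, had a high TNNT1 share of its slow troponin UMIs beside the sets given here. TNNT1 had 53.0% (48.4 to 57.6) of them in animal 1 and 53.0% (50.9 to 55.2) in animal 2, against 35.9% (32.9 to 39.0) and 42.5% (40.2 to 45.0) in the types that are not muscle, and 38.4% and 45.4% in the MYH7-led cluster. The fibre cluster led by ALDOA and PYGM had 50% (38.6 to 61.4) in animal 1, with an interval that overlaps, and 41.2% (39.6 to 42.9) in animal 2. UBE2C, chosen after its values were seen, is the neighbour of TNNC2 by the gene table of another assembly. It had 177 and 316 CPM in that cluster, against 26.1 and 13.3 in fibre-like nuclei. TNNC2 had 6693 and 22376 CPM in the unnamed cluster, against 27952 and 43502 in fibre-like nuclei, so the neighbours did not follow the same order.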
